A study of Homo sapiens with 18 samples.

Results

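Long non-coding RNAs are long transcripts that code for no protein, and several of them respond to growth conditions or stress. A group of 8 such RNAs was followed here: MALAT1, NEAT1, GAS5, SNHG1, H19, MEG3, MIR1915HG and LINC00523. Members were all probe sets of the array whose annotation names exactly 1 gene symbol and whose symbol is one of these RNAs. A probe set is a group of short oligonucleotide probes for 1 transcript, each present as a perfect match (PM) and a mismatch (MM) probe. Of 54675 probe sets, 27 met the rule, and they cover 5 of the 8 RNAs: 12 for MALAT1, 10 for MEG3, 3 for MIR1915HG, 1 for GAS5 and 1 for LINC00523. In all, 41097 probe sets carry 1 symbol, for 19775 genes, 1801 carry several and 11777 none. NEAT1, SNHG1 and H19 have only probe sets of several symbols, which also name the small RNAs inside these genes: 9 for NEAT1 with MIR612, 2 for H19 with MIR675 and 1 for SNHG1 with its snoRNAs. A further 4 sets name GAS5 with its snoRNAs. No value is given for any of these sets, because they cannot be assigned to 1 gene.

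The study asked how stringent washing and re-labelling of a hybridized array change its signals. RNA of untreated FTC-133 cells, an established line from a human follicular thyroid carcinoma, was labelled once and the same material was hybridized to 3 HG-U133 Plus 2.0 arrays, A, B and C, which gave 18 scans. In the second series (9 scans) each array, already stained and washed in the first series, was stained again and taken through the same steps. In both series arrays A and B were scanned after 0, 2, 7 and 17 additional washing cycles (A5 to A8 and B5 to B8 in the second series, A1 to A4 and B1 to B4 in the first), and array C once under the standard protocol (C2 in the second series, C1 in the first). Arrays A, B and C had 0, 2 and 6 stringent cycles before staining. The second series always followed the first on the same array, so re-staining cannot be told apart from the order of the scans and from the cycles already made, which came to 17 on scan A5 and 21 on scan B5. There was 1 RNA sample and 1 cell line, so every difference below is a difference between measurements of the same RNA, and the p-values measure technical spread. Array A was the only one without stringent cycles before staining, so array and initial washing cannot be told apart either.

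Signals are MAS5 values, which summarise the PM and MM probes of a set on a linear scale, brought to the same trimmed mean in every scan. The median signal of all probe sets was 52.7 to 112 in the second series and 51.0 to 136 in the first, and was lower after 17 than after 0 additional cycles in all 4 runs of arrays A and B. The cells carried the thyroid transcription factors PAX8 and NKX2-1 at percentiles 89.4 and 89.5 of scan C1, whereas TG, TSHR and FOXE1, also thyroid genes, were below the median of that scan, with 4 of 7 thyroid markers above it. Of 4 epithelial markers 3 were above the median, up to percentile 93.8 for the keratin KRT18, but the cadherin CDH1 was at 38.9. Among the blood markers PTPRC and CD3D were at percentiles 33.5 and 30.2 and HBB, a globin chain, at 66.2. Of the endothelial markers 2 of 3 were above the median, and of the liver and muscle markers 1 of 2 each.

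MALAT1 is an abundant nuclear RNA of the splicing-factor bodies called nuclear speckles. NEAT1 is the scaffold of the neighbouring paraspeckles. GAS5 and SNHG1 are spliced host RNAs whose introns carry small nucleolar RNAs, and GAS5 builds up in cells that stop growing. H19 and MEG3 are imprinted RNAs made from the maternal allele, and MEG3 is known as a growth-restraining RNA that many tumours lose. MIR1915HG is the host transcript of the microRNA miR-1915, and LINC00523 is an intergenic RNA. In the RefSeq gene table of assembly GRCh38.p14, MIR1915 lies next to MIR1915HG, and DLK1, an imprinted gene expressed from the paternal allele, precedes MEG3 with MIR2392 between them.

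The 5 RNAs stood at different places in the signal distribution. On scan C1, taken under the standard protocol, the 12 MALAT1 sets lay between percentiles 67.9 and 99.1, and 8 of them were in the top 10%. The GAS5 set was at percentile 62.8 and the LINC00523 set at 63.0. The 3 MIR1915HG sets lay between percentiles 39.2 and 73.5. The 10 MEG3 sets lay between percentiles 7.62 and 68.8, and 4 of them exceeded the median. Over all 18 scans, 13 of the 27 sets were always above the median of their scan (10 of MALAT1 and 1 each of GAS5, MEG3 and MIR1915HG), and 4 sets, all of MEG3, never were. The sets of 1 RNA therefore did not share a rank, which is plainest for MEG3, where 226211_at stayed between percentiles 54.0 and 91.7 and 231529_at between 4.52 and 40.8.

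**Figure D1:**
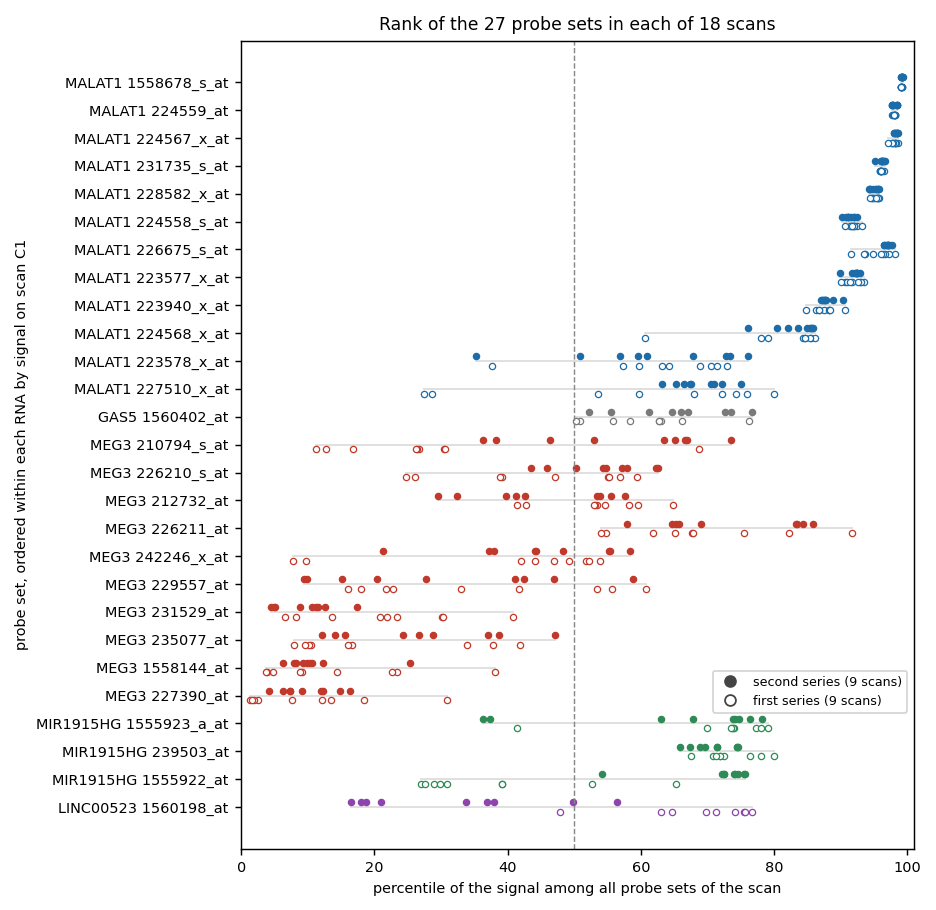
Percentile of each of the 27 probe sets among all probe sets of a scan (x axis, percent), one line per set, for the 9 scans of the second series (filled points) and the 9 scans of the first series (open points). The 4 brightest MALAT1 sets stay at or above percentile 95.1 in all scans, while the LINC00523 set spreads widely on both sides of the median (dashed line). Of the 10 MEG3 sets, 4 stay below the median in all scans and 1 stays above it.

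Re-labelling changed 3 of the 27 sets past the threshold. The MIR1915HG set 1555922_at and the MEG3 set 210794_s_at were higher after re-labelling, 4.20-fold and 3.53-fold, and the LINC00523 set 1560198_at was lower, 5.20-fold. Their lowest signals were 21.1, 6.11 and 12.1, in this order, and no offset was added. The sizes depended on the settings described below: the log2 changes ran from 1.70 to 2.77, 1.29 to 1.98 and -2.64 to -1.02. Higher signals were thus found for 2 sets, where 0.294% of all 54675 probe sets were called higher, and lower ones for 1 set, where 0.541% were called lower. In counts, 161 probe sets were called higher and 296 lower, against 254 and 290 under median centring and 290 and 282 under quantile normalization. No MALAT1 set passed, nor did the GAS5 set (unadjusted p = 0.163). In simulated data the re-labelling fit recovered 21% of changes of 1 log2 unit, so missing the threshold does not show a level signal. At an unadjusted p under 0.05, 3 of the 12 MALAT1 sets were higher, while 4558 of all probe sets were higher and 6172 lower. Changes were tested with limma on log2 signals with the pair of array and washing step as a block (9 pairs). The p-values were adjusted over all 54675 probe sets by Benjamini-Hochberg with a threshold of 0.05. Pairs of the same array are repeated scans of 1 hybridization, so the 9 pairs are not independent, although the fit treats them so. An SD over pairs is a spread within 1 array. The median change was 0.09 on the log2 scale over the 27 sets and -0.02 over all probe sets, and 18 of the 27 changes were positive. Each scan had been brought to the same trimmed mean, so a rise common to all sets cannot show in these values. For the unscaled arrays the paper reports a marked rise in intensity after the second staining.

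The 3 MIR1915HG sets did not change alike, with log2 changes from -0.44 to 2.07. The set 1555922_at had signals of 129, 209, 217 and 215 on array A, 197, 155, 175 and 141 on array B and 211 on array C in the second series, against 59.0, 38.5, 59.1 and 29.1, 121, 67.2, 22.2 and 21.1 and 32.7 on the same arrays in the first. All 9 second-series scans were above all 9 first-series scans, a separation shown by 0.0348% of all probe sets. The change was 2.07 on the log2 scale (SE 0.27, limma adjusted p = 0.0219), higher in 9 of 9 pairs, with means of 2.08 ± 0.76 on array A and 1.90 ± 1.12 on array B (SD over 4 pairs) and 2.69 on array C. As a percentile of the scan the series did overlap, with 54.1 to 75.6 in the second series and 27.04 to 65.4 in the first. The brighter sets of the same RNA did not share this change. The set 1555923_a_at had 172, 51.7, 168 and 51.6 on array A, 252, 205, 155 and 157 on array B and 199.8 on array C in the second series, against 258, 291, 277 and 61.7, 204, 178, 164 and 224 and 179 in the first. On array A its second-series signal alternated between levels like those of array B and much lower ones, and the series overlapped. The set 239503_at had 198, 200.4, 155 and 178 on array A, 194, 178, 162 and 132.8 on array B and 135 on array C in the second series, against 239.6, 229.7, 276 and 294, 240.4, 148, 151 and 133.5 and 151 in the first. It was lower after re-labelling in all 4 pairs of array A and in 2 of 4 pairs of array B. Their changes were -0.44 (adjusted p = 0.392) and -0.24 (adjusted p = 0.374).

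LINC00523 is represented by the single set 1560198_at. Its signals were 28.1, 24.0, 17.9 and 88.1 on array A, 38.5, 12.1, 24.5 and 29.7 on array B and 74.4 on array C in the second series, against 125, 284, 242 and 142, 205, 139.9, 187 and 128 and 89.2 in the first. All second-series scans were below all first-series scans, as for 0.0402% of all probe sets, although the highest second-series scan, A8, and the lowest first-series scan, C1, differed by little (88.1 against 89.2). The change was -2.38 (SE 0.38, limma adjusted p = 0.0344) and lower in 9 of 9 pairs. It amounted to -2.54 ± 1.43 on array A and -2.74 ± 0.62 on array B (SD over 4 pairs) but to -0.26 on array C, the array washed by the standard protocol. In percentiles the series overlapped, from 16.5 to 56.4 in the second and from 47.9 to 76.8 in the first.

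**Figure D2:**
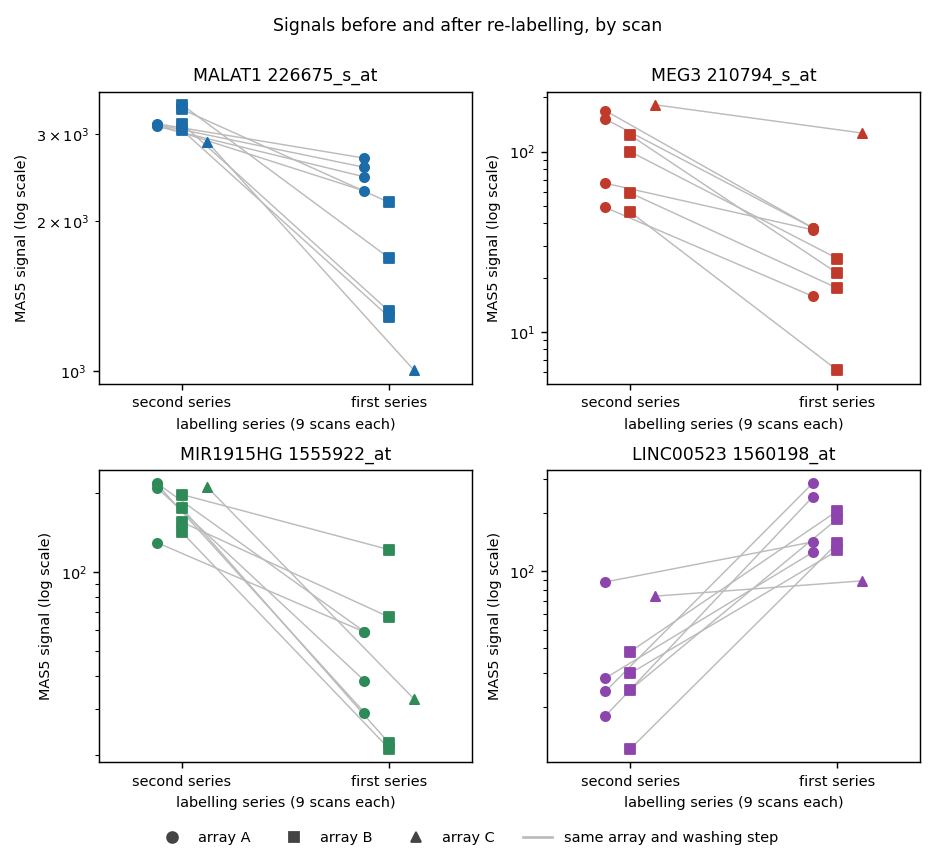
MAS5 signal (log axis) of 4 probe sets in the 9 scans of the second series and the 9 scans of the first series. Each line joins scans of the same array and washing step. The lines of 1555922_at (MIR1915HG), 210794_s_at (MEG3) and 226675_s_at (MALAT1) all descend towards the first series and those of 1560198_at (LINC00523) all climb.

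The 10 MEG3 sets changed in both directions. The brightest on scan C1, 210794_s_at, had 66.8, 169, 152 and 49.0 on array A, 123, 100.04, 59.0 and 46.3 on array B and 182 on array C in the second series, against 36.8, 37.8, 37.8 and 15.8, 21.1, 25.5, 17.5 and 6.11 and 127 in the first. Every pair was higher after re-labelling, and the series overlapped only through scan C1, since on arrays A and B the first series ended at 37.8. The change was 1.82 (SE 0.24, limma adjusted p = 0.0222), with 1.66 ± 0.58 on array A, 2.30 ± 0.53 on array B and 0.52 on array C. In the other direction lay 231529_at, with 15.5, 9.97, 8.72 and 11.2 on array A, 12.3, 7.78, 6.44 and 7.11 on array B and 7.5 on array C in the second series, against 32.0, 28.6, 14.96 and 7.98, 26, 16.8, 22.7 and 11.9 and 35.3 in the first. It was lower in 8 of 9 pairs, at -1.09 (SE 0.25, adjusted p = 0.0671), and it never exceeded the median of a scan. The other 8 MEG3 sets changed by -0.56 to 0.56 with adjusted p-values of 0.141 to 0.909. Over the 10 sets the SD of the changes was 0.79, against 0.28 over the 12 sets of MALAT1. The MEG3 sets were dimmer, with C1 signals of 4.47 to 127, against 120 to 8759 for MALAT1. The SEs of their changes ran from 0.18 to 0.49, against 0.10 to 0.41. Whether the spread differed at equal signal was not tested.

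**Figure D3:**
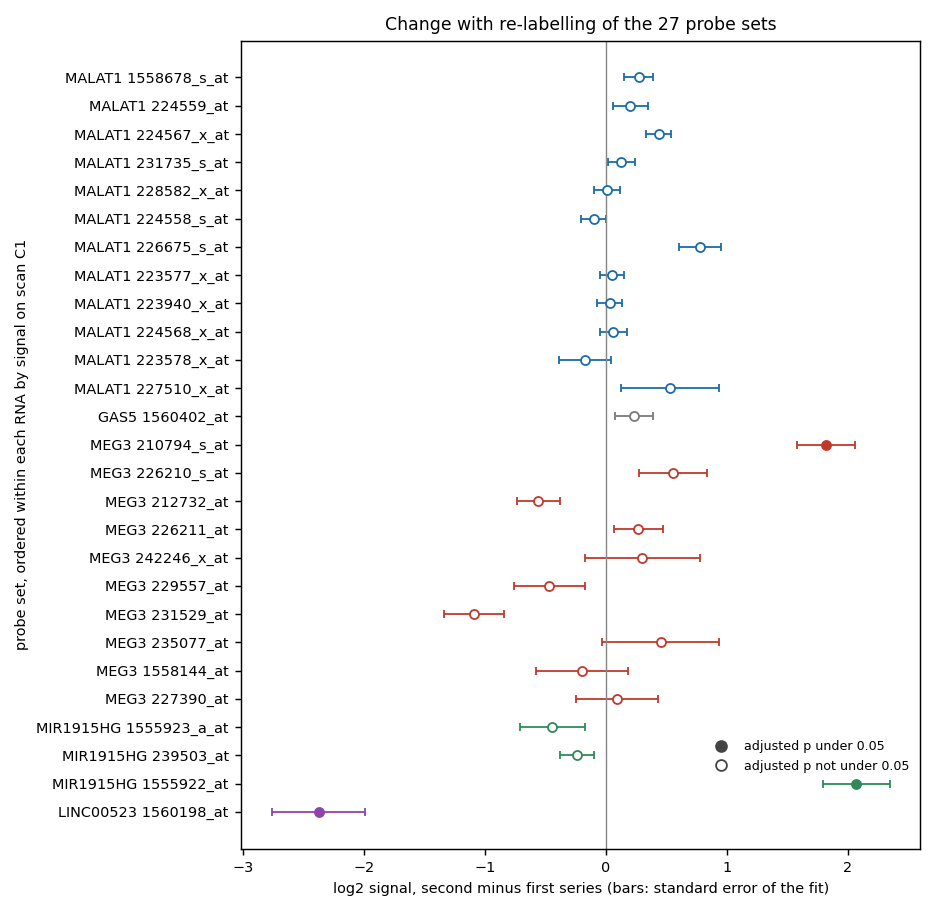
Change with re-labelling of the 27 probe sets (x axis, log2 signal of the second minus the first series, bars showing the standard error of the fit), grouped by RNA and ordered by the signal on scan C1. Filled points mark the 3 sets with an adjusted p under 0.05, at 2.07, 1.82 and -2.38, and the MALAT1 sets lie between -0.18 and 0.78.

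The difference between sets of the same RNA was tested as such. For each of 31845 probe sets of genes with several single-symbol sets, the log2 signal minus the mean of the other sets of its gene was compared between the series with the same fit. Among the 25 sets of MALAT1, MEG3 and MIR1915HG, 2 changed upward relative to the other sets of their RNA and 2 downward, where 0.961% and 0.92% of all 31845 sets did so. The MIR1915HG set 1555922_at gained 2.41 on the log2 scale on its companions (SE 0.34, limma adjusted p = 0.0206), and 239503_at changed by -1.05 (SE 0.22, adjusted p = 0.0449). The value for 1555923_a_at was -1.36 (SE 0.33, adjusted p = 0.0667). With 3 sets these values depend on each other, because each set enters the mean the others are set against. Within MEG3, 210794_s_at gained 1.89 (SE 0.28, adjusted p = 0.0244) and 231529_at changed by -1.34 (SE 0.28, adjusted p = 0.0449). None of the 12 MALAT1 sets passed, with adjusted p-values of 0.108 to 0.969. One unadjusted p under 0.05 was found among them, for 226675_s_at (0.00644), while 3294 of the 31845 sets were higher and 3220 lower at that level. In simulated data this within-RNA fit recovered 0% of changes of 1 log2 unit. Missing the threshold therefore does not show that the MALAT1 sets changed alike.

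None of these calls held without array A or without array B. With the array instead of the pair as the unit (3 arrays), 0 of the 27 sets were called, as were 0 of all 54675, and the adjusted p was 0.777 for 1555922_at, 210794_s_at and 1560198_at alike; with array A left out the adjusted p-values were 0.115, 0.109 and 0.124, with array B left out 0.125, 0.172 and 0.228, and all 4 within-RNA calls were lost both times. The within-RNA call of 239503_at was also lost without array C (adjusted p = 0.0612). Leaving out a single pair kept the sign in every case but ended calls: 1555922_at passed without 6 of the 9 pairs (all but A2 with A6, A3 with A7 and B4 with B8), 210794_s_at without 4 and 1560198_at without 2, with adjusted p-values up to 0.0599, 0.0599 and 0.0771.

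MALAT1 had the most sets, and 10 of its 12 changes with re-labelling were positive, although none passed the threshold. Of its 12 sets, 1 has the plain suffix _at, 4 have _s_at and 7 have _x_at, the suffixes by which the manufacturer marks probe sets that can also bind related transcripts. The brightest, 1558678_s_at, had 8357, 9794, 11134 and 11445 on array A, 10531, 13025, 14916 and 14957 on array B and 9829 on array C in the second series, against 4689, 7438, 9678 and 11216, 7709, 10879, 13589 and 15331 and 8759 in the first. It stood between percentiles 99.0 and 99.4 in all 18 scans while its signal varied 3.27-fold. Re-labelling changed it by 0.27 (SE 0.12, adjusted p = 0.249), with 8 of 9 pairs higher.

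The next sets by signal on scan C1 were also in the top 10% of that scan. The set 224559_at had 4604, 5449, 6438 and 6104 on array A, 4214, 5182, 5479 and 5541 on array B and 4193 on array C in the second series, against 2527, 3761, 4472 and 5031, 3773, 4860, 6036 and 6986 and 4681 in the first. All 4 pairs of array A were higher after re-labelling, by 0.55 ± 0.24, and 2 of 4 pairs of array B, by -0.06 ± 0.23 (SD over pairs). The set 224567_x_at had 5041, 5693, 6439 and 6578 on array A, 5183, 6126, 6433 and 6455 on array B and 5542 on array C in the second series, against 3293, 4045, 4681 and 5339, 4317, 4685, 5148 and 5302 and 3189 in the first. It was higher in 9 of 9 pairs, by 0.44 (SE 0.10, limma adjusted p = 0.0758). The set 231735_s_at had 1878, 2112, 2084 and 2181 on array A, 2556, 2458, 3251 and 3089 on array B and 1824 on array C in the second series, against 1453, 1752, 1931 and 2059, 2162, 2662, 2518 and 2795 and 2301 in the first. Its pairs on arrays A and B were higher in 7 of 8 cases and that of array C lower.

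The set 226675_s_at stood apart from the other MALAT1 sets. Its signals were 3145, 3133, 3106 and 3132 on array A, 3362, 3434, 3146 and 3054 on array B and 2897 on array C in the second series, against 2682, 2570, 2459 and 2304, 2184, 1688, 1319 and 1284 and 1004 in the first. All second-series scans were nearly level and above all first-series scans, of which that of array C was the lowest. The change was 0.78 (SE 0.17, limma adjusted p = 0.0652), higher in 9 of 9 pairs, and it differed between the arrays, with 0.32 ± 0.09 on array A, 1.04 ± 0.30 on array B (SD over 4 pairs) and 1.53 on array C. It missed the threshold here and passed it under median centring (adjusted p = 0.0477) and with an offset of 16 added to each signal (adjusted p = 0.0447). Among the 27 sets it was, with 1555922_at and 1560198_at, one of the 3 whose series did not overlap. The second series lay above the first for 226675_s_at and 1555922_at, as for 0.0348% of all probe sets. It lay below for 1560198_at, as for 0.0402%. None of the 3 was separated on the percentile scale.

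The remaining bright MALAT1 sets moved little. The set 228582_x_at had 1353, 1351, 1359 and 1319 on array A, 2061, 2093, 1985 and 1985 on array B and 2055 on array C in the second series, against 1352, 1588, 1548 and 1530, 1895, 2018, 1717 and 1993 and 1620 in the first. Here the array mattered more than the series, because all 8 scans of array A lay below all 8 scans of array B. The set 224558_s_at had 704, 799.6, 791 and 757 on array A, 1008, 916, 1040 and 955 on array B and 921 on array C in the second series, against 758, 945, 843 and 772, 1035, 967, 976 and 912 and 1282 in the first. Scan C1 was its highest. The set 223577_x_at had 923, 959, 952 and 1044 on array A, 960.5, 1036, 986 and 1010 on array B and 797 on array C in the second series, against 946, 1004, 1079 and 1004, 871, 937, 827 and 871 and 833 in the first. Its range over the 18 scans, 1.35-fold, was the narrowest of the 27 sets. The set 223940_x_at had 610.4, 523, 538 and 535 on array A, 577, 569, 506 and 487 on array B and 833 on array C in the second series, against 692, 456, 495 and 577, 606, 515, 485 and 555 and 676 in the first. Its highest value was that of scan C2. Changes of these 4 sets with re-labelling ran from -0.10 to 0.05.

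Of the 3 dimmest MALAT1 sets, 2 varied more than any other set of this RNA. The set 224568_x_at had 273, 315, 339.7 and 374 on array A, 458, 419, 423 and 411 on array B and 500.2 on array C in the second series, against 195, 319, 278 and 405, 501, 419, 457 and 404 and 459 in the first. Scan A1 was the lowest. The set 223578_x_at had 58.1, 118, 238 and 209 on array A, 131, 89.6, 76.0 and 54.7 on array B and 173 on array C in the second series, against 81.3, 137, 150.1 and 120.1, 161, 169, 140.4 and 87.9 and 128 in the first. It was lower in all 4 pairs of array B and split evenly on array A. The set 227510_x_at had 173, 166, 165 and 151 on array A, 203, 144, 127 and 108 on array B and 167 on array C in the second series, against 155, 337, 247 and 213, 180.0, 87.8, 20.5 and 16.6 and 119.8 in the first. Its 20.3-fold range came from scans B3 and B4. Both 223578_x_at and 227510_x_at were below the scan median in 2 of 18 scans.

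The single GAS5 set, 1560402_at, had 239, 156, 245 and 211 on array A, 120.0, 90.9, 57.4 and 65.3 on array B and 121 on array C in the second series, against 318, 166, 122 and 149.9, 107, 62.7, 57.4 and 66.4 and 88.2 in the first. Re-labelling changed it by 0.24 (SE 0.16, adjusted p = 0.432), with 5 of 9 pairs higher. The arrays differed more: all 8 scans of array A (121.8 to 318) were above all 8 scans of array B (57.4 to 120.0). The MEG3 set 226211_at was separated in the same way, with 158 to 767 on array A and 76.5 to 127 on array B, and reached its highest value on A1. Of the 27 sets, 2 were above on array A, where 10.4% of all probe sets were, and 1 was below, where 2.35% were. This comparison of arrays was made after the values had been seen.

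Washing was compared as 17 against 0 additional cycles within each series on arrays A and B, fitted with a term for each number of cycles and one for the array. With 8 scans in such a fit, missing the threshold does not show that a signal stayed level. No member passed in the first series, where 0% of all probe sets were called higher and 0% lower by limma, and adjusted p-values of the members ran from 0.196 to 0.944. At an unadjusted p under 0.05, 2 members were higher and 4 lower, as were 1914 and 7573 of all probe sets. The median change was -0.28 over the members and -0.45 over all probe sets. The signals of the 27 sets differed in direction between arrays A and B in 10 cases, were higher on both in 8 and lower on both in 9.

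The MALAT1 sets differed in direction with washing. Every scan had been brought to the same trimmed mean, so a higher value here is a gain relative to the rest of its scan. It does not show that the raw intensity rose, and the paper reports that probe intensities fell with the number of cycles. On both arrays and in both series 1558678_s_at and 224567_x_at were higher with each washing step, so that 1558678_s_at at 17 cycles exceeded its value at 0 cycles by 1.26 on array A and 0.99 on array B in the first series, and by 0.45 and 0.51 in the second. The first-series change of 1558678_s_at was 1.12 (SE 0.27, adjusted p = 0.200) and that of 224559_at 0.94 (SE 0.26, adjusted p = 0.225). The median over all probe sets in the top 10% of scan C1 was 0.41. At percentiles 99.1 and 98.1 of that scan, 1558678_s_at and 224559_at were brighter than most of the top 10%. Whether they differed from equally bright sets was not tested. By contrast 226675_s_at was lower with each step of the first series on both arrays, at -0.22 on array A and -0.77 on array B, and the dim set 227510_x_at stood at 0.46 (array A) and -3.43 (array B) relative to 0 cycles. The dim sets 224568_x_at and 223578_x_at were likewise higher on array A, at 1.06 and 0.56, and lower on array B, at -0.31 and -0.88. In all, 6 MALAT1 sets were higher on both arrays, 2 lower on both and 4 opposite. With a variance trend and robust moderation in the limma fit, 3 MALAT1 sets passed as higher in the first series, 1558678_s_at, 224559_at and 224567_x_at, while 1954 of all probe sets did.

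**Figure D4:**
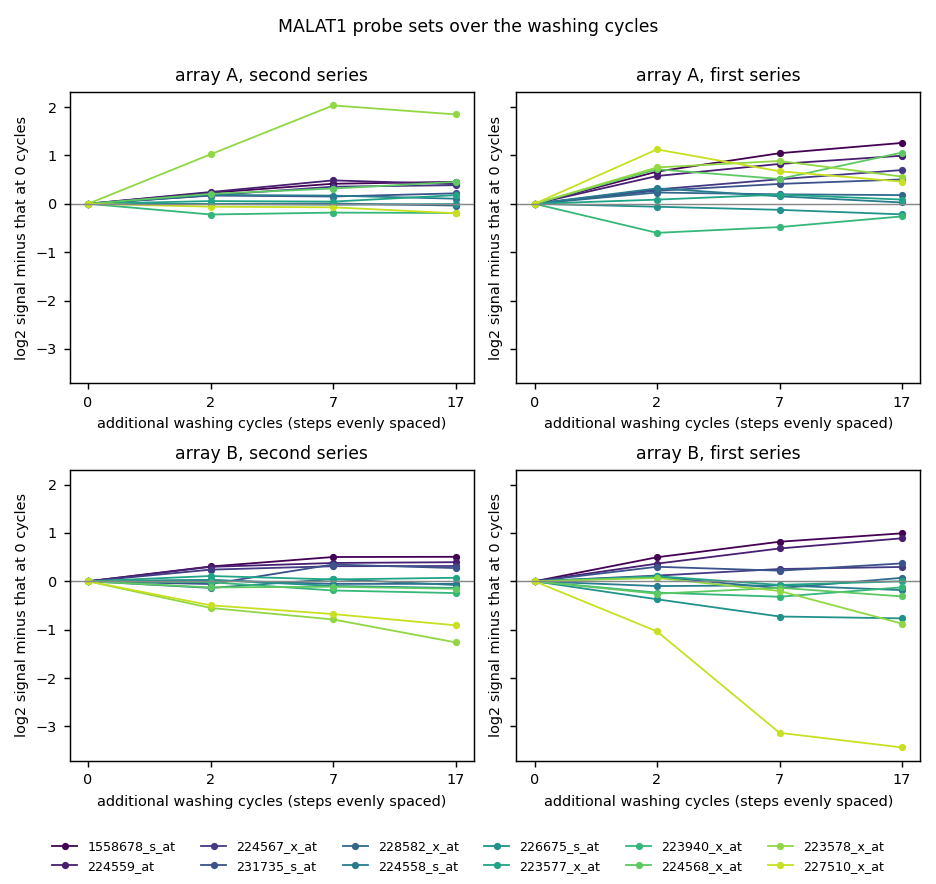
Log2 signal of the 12 MALAT1 probe sets minus that at 0 additional cycles (y axis) after 0, 2, 7 and 17 additional washing cycles (x axis, steps evenly spaced), by array and series, with darker lines for sets brighter on scan C1. The lines of the 4 sets with the highest C1 signal end above 0 in every panel, at up to 1.26 in the first series of array A, and 227510_x_at ends at -3.43 in the first series of array B.

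No MEG3 set passed the washing test. In the first series 8 of 10 had a negative fitted change, with a median of -0.96, but only 5 were lower on both arrays, while 2 were higher on both and 3 opposite. On array A 8 of the 10 were lower, on array B 5. Over all probe sets of similar C1 signal the median was also negative, from -0.85 to -0.59 across the signal levels of the MEG3 sets. Whether the MEG3 sets fell more than equally dim sets was not tested. The set 210794_s_at changed by -1.51 (SE 0.33, adjusted p = 0.196), the lowest p of all members. The median over all probe sets of similar C1 signal (percentiles 60 to 70) was -0.59. The values on array A and B were -1.22 and -1.79 for this set, and -2.28 and 0.12 for 226211_at, whose signal was 158 on A4, against 767 on A1. None of the 3 MIR1915HG sets passed. The set 1555922_at was lower on both arrays, with a change of -1.77 (SE 0.69, adjusted p = 0.295), whereas the other 2 differed in direction, at -2.06 on array A and 0.14 on array B for 1555923_a_at and at 0.30 and -0.85 for 239503_at. The GAS5 set changed by -0.89 (SE 0.29, adjusted p = 0.249) and LINC00523 by -0.25 (SE 0.48, adjusted p = 0.801). For the GAS5 and LINC00523 sets the median over all probe sets of similar C1 signal was -0.59. For 1555922_at it was -0.75, and for the other MIR1915HG sets -0.37.

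In the second series no member passed over the same cycles, again with 0% of all probe sets called in either direction by limma. At an unadjusted p under 0.05 there were 1 member higher and 1 lower, 1558678_s_at at 0.48 and 231529_at at -0.63, as were 1395 and 6358 of all probe sets. The median change was -0.07 over the members and -0.24 over all probe sets. The difference of the washing change between the series, tested as an interaction over the 16 scans of arrays A and B, passed for no member and for 0% of all probe sets in either direction, with 1 member, 1558678_s_at, at an unadjusted p under 0.05 (-0.65, SE 0.27, limma adjusted p = 0.658), while 2686 of all probe sets were higher and 1408 lower at that level. Relative to the other sets of its RNA no set passed for washing in the first series either, where 0% of the 31845 sets were called, and 1 member, 1558678_s_at, had an unadjusted p under 0.05, against 1869 higher and 1756 lower of the 31845. With the variance trend, 3 MALAT1 sets passed as higher in the second series and 2 as lower in the interaction. Many probe sets outside the members passed in the same directions under these fits, with the counts given in the closing section.

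The genes whose profile over the 18 scans was most like that of a member were found by Pearson's r of log2 signal minus the scan median. Only sets with 1 symbol and a mean log2 signal above the median of all sets were searched. This is a description, since all scans share 3 arrays and 1 RNA. The subtracted scan median is the same for all sets of a scan, so its changes enter every profile. The most similar genes among them were TRA2B and ATP5F1C for the MALAT1 set 1558678_s_at (r = 0.998 each). For GAS5 they were RBMS2 and RET (r = 0.857 and 0.843), and for the MEG3 set 210794_s_at PTPRD and RPS6KA6 (r = 0.886 and 0.847). For the MIR1915HG set 1555923_a_at they were GAD1 and BTBD2 (r = 0.925 and 0.8998), and for LINC00523 DRC4 and DDX3X (r = 0.828 and 0.817).

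The other genes of the bodies and loci to which these RNAs belong were taken from 6 lists, each gene by its set brightest on scan C1. None of their members passed for re-labelling (at an unadjusted p under 0.05, 8 of 75 were higher and 6 lower, as were 1518 and 2223 of all 19775 genes), where 0.223% of all genes were called higher and 0.526% lower. The lists held paraspeckle proteins (17 of 18 measured, median change -0.02), nuclear speckle and SR proteins (17 of 18, 0.11), proteins of the snoRNA particles and their assembly (9 of 11, 0.16), other snoRNA host genes (8 of 22, -0.08), imprinted neighbours of H19 and MEG3 (8 of 11, 0.14) and other long non-coding RNAs (16 of 25, 0.07), while the median of all genes was -0.02. These medians depended on the settings. For the SR list the median was 0.02 under quantile normalization and 0.0050 with all sets of a gene averaged, for the imprinted neighbours 0.07 and 0.36, and for the other long non-coding RNAs 0.05 and -0.0015. The paraspeckle protein NONO had a lowest, median and highest signal of 6748, 10705 and 14756 in the second series, against 4367, 9442 and 18458 in the first, and HNRNPK 4009, 5885 and 16272, against 3640, 7593 and 15170. The SR proteins SRSF7 and SRSF3 changed by 0.11 and 0.38, the snoRNP factors RUVBL2 and NOP10 by 0.16 each, and the host RNAs ZFAS1 and SNHG19 by 0.09 and -0.18. PHLDA2, an imprinted gene of the H19 region, changed by 0.24, and KCNQ1OT1, an antisense RNA of the same region, by -1.30 (SE 0.44, adjusted p = 0.151), with 4.28, 12.9 and 47.4 as the lowest, median and highest signal of the second series, against 11.7, 50.1 and 68.9 of the first. The long non-coding RNAs NORAD and OIP5-AS1 changed by 0.10 and 0.03.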

How the data were processed

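Per the labels, the authors turned the scanned intensities into MAS5 signals (version not stated), and the deposited signals, 1 per probe set and scan in 18 columns, are on a linear scale. Their mean without the lowest and highest 2% was equal between scans to within rounding, which was checked. The signals carry no counts, and precision is limited by 3 arrays. No 2 scans were identical. Probe sets were named through the platform annotation, and the identifiers of the 5 measured RNAs were found in RefSeq with 0 changed symbols. The deposited data name no genome build, so no coordinates are given, and probe sequences were not used here. The gene order given above is that of assembly GRCh38.p14.

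Log2 signals without offset or filter were fitted in R 4.3.3 with limma 3.58.1, and the fits were tested on simulated data. There the first-series washing fit missed changes as large as those of the members, so its lack of calls does not show level signals. The re-labelling fit recovered 21% of changes of 1 log2 unit and 64% of changes of 2, and the within-RNA fit 0% and 56%. Re-labelling used all 18 scans with each pair (1 array at 1 washing step in both series) as a block, since both scans of a pair come from the same array. Their deviations from the series means correlated at 0.221 to 0.626 over probe sets in the 9 pairs. Washing used a term for each number of cycles and a block for the array. Figures were drawn with matplotlib 3.10.9 in Python 3.11.15.

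Members, lists and tests were chosen with earlier results of these data known. All member sets are reported. Scan by scan values are given for the set brightest on scan C1 of each RNA, for all MALAT1 sets above the C1 median and for sets that differ from the others of their RNA. Of each related list the 2 genes brightest on C1 are named, and the 2 genes most alike in profile for each RNA. Alternatives were median centring, quantile normalization, an offset of 16, only probe sets above the median mean, robust moderation with a variance trend, no block, the array as unit, 1 pair for each array, and leaving out arrays, pairs or scans.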

Additional observations from a re-analysis of the deposited data

How the results depend on the processing

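For re-labelling, 2 members were called higher and 1 lower. Called higher were 4 with a variance trend and robust moderation, 1 with no replicate block, 0 with the array as the unit and 0 with 1 pair for each array, and 0 to 2 when an array or a pair was left out. Called lower were 0 with the array as the unit, 0 with 1 pair for each array, and 0 to 2 when an array or pair was left out, the second being the MEG3 set 231529_at without scans A4 and A8. Over all probe sets the counts of 161 higher and 296 lower became 836 and 998 with the variance trend, 361 and 606 with the offset, 254 and 290 under median centring, 290 and 282 under quantile normalization, 24 and 99 without the block, 104 and 141 in the brighter 27337 probe sets, 0 and 0 with the array as the unit or 1 pair for each array, and 0 to 202 and 0 to 533 with an array or pair left out. Among the brighter sets 2 members were called higher, 1555922_at and the MALAT1 set 224567_x_at, and 210794_s_at was not among those tested. The change of sets called under any setting kept its sign throughout, whereas 13 of 27 sets turned sign under at least 1 setting. Within RNAs, 2 sets were called in each direction. Called higher were 1 with no replicate block, 0 with the array as the unit and 0 to 2 without an array. Called lower were 1 with the offset, 1 with the variance trend, 1 with no replicate block, 0 with the array as the unit and 0 to 1 without an array. Over all 31845 sets the 306 and 293 calls became 107 and 109 without the block and 0 to 369 and 0 to 355 without an array. For washing, 0 members were called, but with the variance trend 3 were higher in the first series, 3 were higher in the second, and 2 were lower in the interaction, where of all probe sets 1954, 1301 and 21 were called higher and 661, 245 and 757 lower. Among the brighter 27337 sets, 542 were called higher and 163 lower in the first series, none of them members. The median washing change of the members was -0.28 in the first series (0.0046 on array A alone, -0.18 on array B alone) and -0.07 in the second (-0.16 and -0.24). The related lists had 0 calls under every setting run. The cause of these differences was not tested.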
